A study of Mus musculus with 8 samples.

Results

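The genes described here are 7 cytochrome P450 genes of the Cyp2a and Cyp2b subfamilies on mouse chromosome 7, Cyp2b9, Cyp2b10, Cyp2b13, Cyp2a4, Cyp2a5, Cyp2a12 and Cyp2a22. They were chosen by symbol from the 16540 genes of a liver count table, by a list drawn up with the values of the same ISOGK against vehicle contrast already known, so their counts and fold changes in that contrast are given as a description. No p-value is printed for them, and where the text says which of them passed the thresholds of the fit across all genes, that is not evidence of a difference. A filter on low counts kept 12307 of the 16540 genes, and of the 7 genes it kept 5, leaving out Cyp2b13 and Cyp2a4.

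The mice were male and carried the Apoe-/- genotype in both groups, so the knockout does not differ between the groups compared. They were fed a Western diet and received isoginkgetin (ISOGK), a biflavonoid from Ginkgo that the study examined as an inhibitor of ATP citrate lyase, at 20 mg/kg/day by intraperitoneal injection for 8 weeks, or the vehicle. Liver RNA of 4 vehicle mice and 4 ISOGK mice was sequenced, with 1 library for each mouse, and the vehicle columns of the table bear the name of the solvent DMSO. Apoe itself was counted in every library, and gene counts alone do not tell whether the allele is intact. The genotype is therefore taken from the labels and from the study. The age of the mice is not given in the sources used here.

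Cyp2a and Cyp2b genes encode heme monooxygenases of the endoplasmic reticulum, which take electrons from cytochrome P450 reductase and oxidize drugs, steroids and other small lipophilic molecules. Cyp2b10 is the classic target of the constitutive androstane receptor (CAR, encoded by Nr1i3) in mouse liver and also responds to the pregnane X receptor (PXR, encoded by Nr1i2). Cyp2b9, Cyp2b13 and Cyp2a4 are known for higher expression in female than in male mouse liver, a difference set by the pattern of growth hormone secretion, and Cyp2a5 is the mouse coumarin 7-hydroxylase.

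Between 19605286 and 24461854 reads were counted on genes in the vehicle libraries and between 17457106 and 21626399 in the ISOGK libraries, and the totals did not differ beyond their spread (two-sided exact permutation test, p = 0.2). Levels are given as CPM, counts relative to the size of the library, scaled with the TMM method, and 3 counts, the limit that a count of 0 allows, correspond to 0.117 to 0.170 CPM in these libraries. Of the 7 hepatocyte markers listed, 6 were in the table, none was at 0, and their summed level was 144370 to 157862 CPM in vehicle livers and 133274 to 180979 CPM in ISOGK livers (two-sided exact permutation test, p = 0.657). Alb, named after its value was seen, made up most of that sum, at a mean of 123533 CPM in vehicle livers. Liver is a mixture of cells, and bulk counts cannot tell fewer cells of a type apart from less RNA per cell. The vehicle library of mouse 4 held 82.3 CPM of 10 skeletal muscle transcripts where the other libraries held 0 to 0.589 CPM. The ISOGK library of mouse 4 stood farther from the other ISOGK libraries than those stood from each other, with a chi-square per gene of 81 to 93.4 in its pairs and 31 to 63 in the other pairs. The vehicle pairs had 17.1 to 31.5, so the ISOGK group as a whole was more spread by this measure. The chi-square was taken on unscaled counts, where abundant genes weigh most. For the tested Cyp2a and Cyp2b genes, log2 fold changes without either mouse are given beside the results.

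The upstream sequences of 2 pairs are shown because each pair is close to identical while its genes were counted at very different levels in these livers. All are the 250 bases before the transcript start in the RefSeq table of build GRCm38.p6, which had an entry for each of the 7 genes, written 5′ to 3′ on the strand of the gene. Cyp2b9 (chr7:26173159-26173408, plus strand) and Cyp2b13 (chr7:26061245-26061494, plus strand) shared 248 of 250 bases, or 99.2%, and differed by T48C and C104T, with positions counted from 1 at the 5′ end and the base of Cyp2b9 first. Capitals mark the letters AGGTCA, a nuclear receptor half-site, 138 bases before the start of both.
Cyp2b9: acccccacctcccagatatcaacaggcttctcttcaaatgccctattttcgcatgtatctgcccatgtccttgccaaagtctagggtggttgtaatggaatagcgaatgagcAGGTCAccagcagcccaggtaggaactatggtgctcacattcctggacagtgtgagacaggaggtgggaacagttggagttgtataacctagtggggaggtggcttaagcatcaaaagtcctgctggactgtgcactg
Cyp2b13: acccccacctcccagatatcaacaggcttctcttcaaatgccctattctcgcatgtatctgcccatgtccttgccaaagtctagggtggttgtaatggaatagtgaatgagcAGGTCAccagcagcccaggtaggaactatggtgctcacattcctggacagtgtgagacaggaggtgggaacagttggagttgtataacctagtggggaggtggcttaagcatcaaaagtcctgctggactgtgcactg

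Cyp2a5 (chr7:26835089-26835338, plus strand) and Cyp2a4 (chr7:26306942-26307191, plus strand) shared 98.4% of the aligned upstream bases. Capitals mark GTTAAT, a half-site of HNF1 factors, and TATAAA, the core letters of a TATA box.
Cyp2a5: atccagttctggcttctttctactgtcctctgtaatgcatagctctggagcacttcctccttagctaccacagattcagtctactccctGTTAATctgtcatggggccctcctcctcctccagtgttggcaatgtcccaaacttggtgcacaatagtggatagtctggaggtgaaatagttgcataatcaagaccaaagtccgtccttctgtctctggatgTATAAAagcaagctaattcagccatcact
Cyp2a4: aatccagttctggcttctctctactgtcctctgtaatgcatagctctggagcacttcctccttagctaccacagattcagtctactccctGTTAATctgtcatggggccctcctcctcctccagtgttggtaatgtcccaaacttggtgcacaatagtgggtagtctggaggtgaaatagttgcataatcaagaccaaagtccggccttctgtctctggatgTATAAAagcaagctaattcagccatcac

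TATAAA also stood before Cyp2a12 and Cyp2a22, so it was in the windows of 4 of the 7 genes, at 28 to 39 bases before the RefSeq start. It was in 12.4% of all 32851 upstream windows of the same length, searched on both strands. For Cyp2b10, Cyp2a4, Cyp2a5 and Cyp2a12, the gene start of the GENCODE annotation used below lies inside the RefSeq window. Positions before the start therefore hold for the RefSeq starts only. AGGTCA was in 4607 of the 32851 windows and GTTAAT in 6.43% of them, and each was in 2 of the 7. The letters TTCNNNGAA of a STAT site, in 7.02% of all windows, and TTATGTAA, bound by PAR bZIP factors and in 0.819% of all windows, were in none of the 7. A match is a description of letters and does not show binding, and the lack of a match says only that these letters are not in this window. The upstream windows of Cyp2a12 and Cyp2a22 were 90.0% identical, and those of Cyp2b9 and Cyp2b10 only 74.6%.

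All 7 genes lie within 1139.76 kb of chromosome 7 (GRCm38), from Cyp2b10 at chr7:25897620-25926624 through Cyp2b13 at chr7:26061497-26096197, Cyp2b9 at chr7:26173411-26210661, Cyp2a4 at chr7:26307169-26315088, Cyp2a5 at chr7:26835305-26843548 and Cyp2a22 at chr7:26931631-26939384 to Cyp2a12 at chr7:27029081-27037375. Each has 9 exons in the GENCODE M21 annotation, and all are on the plus strand except Cyp2a22. The transcripts of Cyp2a4 and Cyp2a5 were 98.3% identical, those of Cyp2a12 and Cyp2a22 96.5%, and those of Cyp2b9 and Cyp2b13 91.7%. Of the stretches of 50 bases in a transcript, 40.8% in Cyp2a5, 38.8% in Cyp2a4, 27.5% in Cyp2a12, 27.3% in Cyp2b13, 25.7% in Cyp2a22, 11.2% in Cyp2b9 and 9.69% in Cyp2b10 also occurred in another gene. Of stretches of 100 bases the shares were 14.4% for Cyp2a5, 11.2% for Cyp2a4 and 0% to 9.29% for the others. The read length and the treatment of reads that match several genes are not given in the sources used here, so the division of reads within these pairs is uncertain.

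Across all 12307 genes tested, 0.626% were lower in ISOGK livers past both thresholds (in edgeR's quasi-likelihood test, a Benjamini-Hochberg adjusted p below 0.05 together with a log2 fold change of more than 1 in size) and 0.999% were higher. Of the 5 tested genes of the cluster, 3 were lower past both thresholds (Cyp2b9, Cyp2a5 and Cyp2a22) and 0 were higher. All 5 had log2 fold changes below 0, with a median of -1.18, and the median over all tested genes was 0.00. The groups did not overlap for the same 3 genes, with all ISOGK mice lower, where 7.36% of all tested genes had that pattern. Without vehicle mouse 2 or 4, or ISOGK mouse 2 or 4, only Cyp2b9 of the 5 was past both thresholds, and without vehicle mouse 3 or ISOGK mouse 3 Cyp2b10 was past them and Cyp2a5 was not. Since the genes were chosen on this contrast, nothing is read from these shares.

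**Figure D1:**
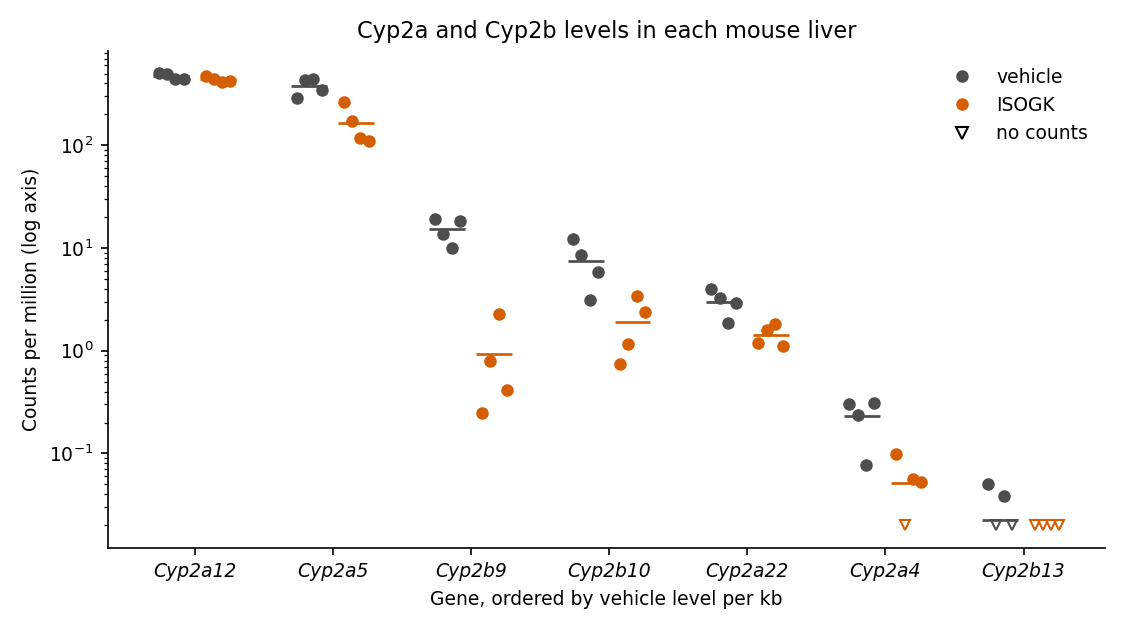
Level of each of the 7 genes in each of the 8 livers, in CPM on a log axis, with vehicle mice in grey, ISOGK mice in orange, a bar at the group mean and open triangles for libraries with no counts (drawn at the foot of the axis, off scale). The ISOGK livers sit below all vehicle livers for Cyp2b9, Cyp2a5 and Cyp2a22, and the groups overlap for Cyp2a12 and Cyp2b10.

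Cyp2b9, one of the female-biased Cyp2b genes, had the largest difference of the 7. It had 384, 348, 256 and 410 counts in vehicle mice 1 to 4 and 5, 15, 40 and 8 counts in ISOGK mice 1 to 4. Every ISOGK liver was below every vehicle liver, and the highest ISOGK liver, that of mouse 3, still had 2.26 CPM against 9.97 CPM in the lowest vehicle liver. The mean was 15.3 ± 4.30 CPM (SD, n = 4) in vehicle and 0.929 ± 0.917 CPM (SD, n = 4) in ISOGK livers, a log2 fold change of -4.07 (SE 0.51), or a ratio of means of 16.5. ISOGK mouse 3 held more counts than the other 3 ISOGK mice together, and without it the log2 fold change was -4.98. Without vehicle mouse 4 it was -3.97 and without ISOGK mouse 4 it was -3.83.

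Cyp2b10, the CAR target, was lower on average but with overlapping groups. Its counts were 244, 214, 81 and 132 in vehicle mice 1 to 4 and 15, 22, 60 and 46 in ISOGK mice 1 to 4. Vehicle mouse 3 was lowest of its group at 3.15 CPM and lay below ISOGK mouse 3, the highest of its group at 3.39 CPM. The means were 7.44 ± 3.87 CPM and 1.92 ± 1.21 CPM (SD, n = 4 each), with a log2 fold change of -1.96 (SE 0.53) that did not pass both thresholds. It was -2.05 without vehicle mouse 4 and -2.09 without ISOGK mouse 4. Within groups Cyp2b10 varied more than the other tested genes in vehicle livers, with a coefficient of variation of 52.0%, where Cyp2b9 had 28.1%, Cyp2a22 29.1%, Cyp2a5 18.7% and Cyp2a12 7.19%.

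Cyp2b13, the near copy of Cyp2b9, was close to absent from the counts of both groups. It had 1 count in vehicle mice 1 and 3 and 0 counts in every other library. At this depth no difference was detectable, and no fold change is given. Vehicle livers thus held 1398 counts of Cyp2b9 and 2 counts of Cyp2b13 in all, although the upstream sequences printed for the pair differ at 2 of 250 bases.

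Cyp2a5, the coumarin 7-hydroxylase, had 5801, 10876, 11280 and 7795 counts in vehicle mice 1 to 4 and 5366, 3276, 2094 and 2111 counts in ISOGK mice 1 to 4. The groups did not overlap but nearly met, at 291 CPM in vehicle mouse 1 and 263 CPM in ISOGK mouse 1. The means were 377 ± 70.5 CPM and 166 ± 70.3 CPM (SD, n = 4 each), with a log2 fold change of -1.18 (SE 0.28). In CPM, Cyp2a5 had the largest absolute loss of the 7 genes. Its log2 fold change was -1.22 without vehicle mouse 4, -1.03 without ISOGK mouse 4 and -1.49 without ISOGK mouse 1.

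Cyp2a4, a steroid 15α-hydroxylase and the near copy of Cyp2a5, had 6, 6, 2 and 7 counts in vehicle mice 1 to 4 and 2, 0, 1 and 1 in ISOGK mice 1 to 4. These sums of 21 and 4 counts give a ratio of ISOGK to vehicle of 0.233 per unit of depth. Its exact 95% interval of 0.0583 to 0.692 covers counting error only. It pools the mice of each group and leaves out the spread between them, so it is no test of a difference. In the fit with no filter beyond 1 count, Cyp2a4 did not pass both thresholds. The groups touched at 2 counts, and in CPM vehicle mouse 3 at 0.0779 lay below ISOGK mouse 1 at 0.0981. Cyp2a5 had 967 to 5640 times as many counts as Cyp2a4 in the vehicle libraries, while the transcripts are 98.3% identical and 38.8% of the 50-base stretches of Cyp2a4 are shared with another gene, and how the counting divided reads between the pair was not tested.

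Cyp2a12 had the highest level of the cluster in both groups and differed least. Its counts were 10009, 12626, 11332 and 9919 in vehicle mice 1 to 4 and 9683, 8379, 7324 and 8003 in ISOGK mice 1 to 4. The groups overlapped in CPM, with means of 471 ± 33.9 CPM and 438 ± 27.7 CPM (SD, n = 4 each) and a log2 fold change of -0.11 (SE 0.09). It was -0.14 without vehicle mouse 4 and -0.09 without ISOGK mouse 4.

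Cyp2a22, the near copy of Cyp2a12 on the opposite strand, had 79, 82, 48 and 65 counts in vehicle mice 1 to 4 and 24, 30, 32 and 21 counts in ISOGK mice 1 to 4. The groups did not overlap but lay close, with vehicle mouse 3 at 1.87 CPM and ISOGK mouse 3 at 1.81 CPM. The means were 3.00 ± 0.871 CPM and 1.42 ± 0.336 CPM (SD, n = 4 each), with a log2 fold change of -1.07 (SE 0.27). It was -1.09 without vehicle mouse 4 and -0.97 without ISOGK mouse 4, which is inside the threshold of 1. Cyp2a12 and Cyp2a22 share 27.5% and 25.7% of their stretches of 50 bases with each other.

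Compared per length of transcript, the order of mean levels in vehicle livers was Cyp2a12 at 280.5 CPM per kb, Cyp2a5 at 187, Cyp2b9 at 8.17, Cyp2b10 at 3.88, Cyp2a22 at 1.67, Cyp2a4 at 0.134 and Cyp2b13 at 0.0119 CPM per kb. Cyp2a12 and Cyp2a5 did not overlap over the vehicle mice, at 263 to 299 against 145 to 218 CPM per kb. Cyp2b9 overlapped Cyp2b10, at 5.31 to 10.3 against 1.65 to 6.39 CPM per kb, and Cyp2b10 overlapped Cyp2a22, at 1.04 to 2.21 CPM per kb. In ISOGK livers Cyp2a12 at 260 and Cyp2a5 at 82.6 CPM per kb kept the first places. Cyp2b10 came next at 1.00, then Cyp2a22 at 0.789 and Cyp2b9 at 0.495 CPM per kb, so Cyp2b9 moved from rank 3 to rank 5, but these 3 overlapped over the ISOGK mice, with Cyp2b9 at 0.131 to 1.21 CPM per kb.

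The make-up of the cluster's counts shifted with these differences. The 7 genes together had 819 to 955 CPM in vehicle livers and 534 to 740 CPM in ISOGK livers, without overlap. Of their counts, not adjusted for length, Cyp2a12 made up 49.3% to 60.6% in vehicle mice and 64.1% to 78.5% in ISOGK mice, and Cyp2a5 made up 35.1% to 49.0% and 20.7% to 35.5%. The Cyp2b genes made up 1.47% to 3.81% in vehicle mice and 0.132% to 1.05% in ISOGK mice. Within each mouse, Cyp2b9 had 1.57 to 3.16 times the counts of Cyp2b10 in vehicle livers and 0.174 to 0.682 times in ISOGK livers, so the ratio was above 1 in 4 of 4 vehicle mice and below 1 in 4 of 4 ISOGK mice. These ratios do not depend on the depth or the scaling of a library. The ratio of Cyp2a12 to Cyp2a5 counts was 1.00 to 1.73 in vehicle mice and 1.80 to 3.79 in ISOGK mice.

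**Figure D2:**
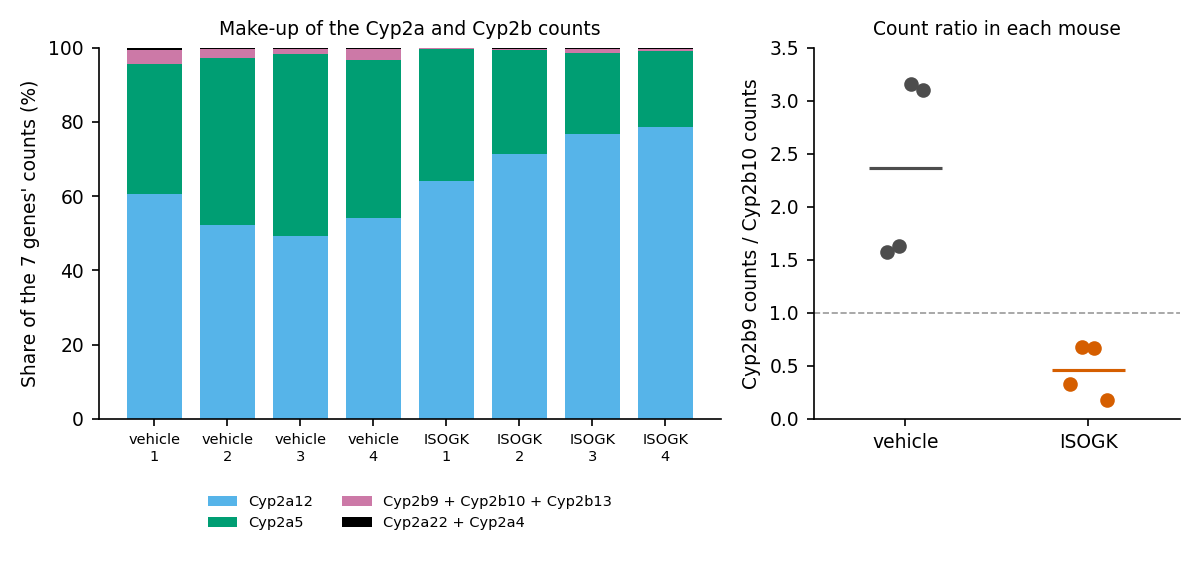
Left, stacked shares of Cyp2a12, Cyp2a5, the Cyp2b genes and the remaining genes in the summed counts of the 7 genes, in percent, for each of the 8 mice. Right, the ratio of Cyp2b9 to Cyp2b10 counts in each mouse with a bar at the group mean and a dashed line at 1. The Cyp2a12 share is 64.1% or more in every ISOGK mouse and 60.6% or less in every vehicle mouse, and all 4 vehicle ratios lie above the line and all 4 ISOGK ratios below it.

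The genes did not order the mice in 1 way. Among vehicle mice, mouse 1 was highest and mouse 3 lowest in CPM for Cyp2b9, Cyp2b10, Cyp2a12 and Cyp2a22, while Cyp2a5 had the reverse, with mouse 1 lowest and mouse 3 highest. Among ISOGK mice, mouse 3 was highest for Cyp2b9, Cyp2b10 and Cyp2a22 and lowest for Cyp2a12, and mouse 1 was lowest for Cyp2b9 and Cyp2b10 but highest for Cyp2a5 and Cyp2a12. The ISOGK mice spread most for Cyp2b9, with the highest at 9.22 times the lowest, then for Cyp2b10 at 4.61 times, Cyp2a5 at 2.38 times, Cyp2a22 at 1.64 times and Cyp2a12 at 1.15 times. With 4 mice in a group no correlation between genes was computed.

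Other genes near the cluster were examined over the span of the 7 genes and 500 kb to either side, a window set after values had been seen. Of 32 other genes of that region in the table, 24 were tested, and their log2 fold changes ran from -0.37 to 1.68 with a median of 0.02. Past both thresholds 1 of them was higher and 0 were lower. The higher gene was Cyp2s1, a P450 expressed mainly outside the liver, which rose from 0.440 ± 0.255 CPM to 1.43 ± 0.580 CPM (SD, n = 4 each, log2 fold change 1.68, SE 0.42, edgeR adjusted p = 0.0337). Its counts were low, at 5 to 18 in vehicle and 16 to 40 in ISOGK libraries, and without vehicle mouse 1, 2 or 3 or ISOGK mouse 2 or 3 its adjusted p in edgeR was 0.0549 to 0.111.

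Cyp2f2, the other abundant P450 of this chromosome region, had 858 ± 47.7 CPM in vehicle and 764 ± 82.8 CPM in ISOGK livers (log2 fold change -0.17, SE 0.10, edgeR adjusted p = 0.348), with overlapping groups. Cyp2g1, an olfactory P450, had 5 to 7 counts in vehicle and 0 to 7 counts in ISOGK libraries and was not tested. Cyp2b19, Cyp2b23 and Cyp2t4 had no row under these symbols in the count table. Of the 6 other Cyp2 genes listed for the cluster, 2 were thus tested, with 1 higher and 0 lower.

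**Figure D3:**
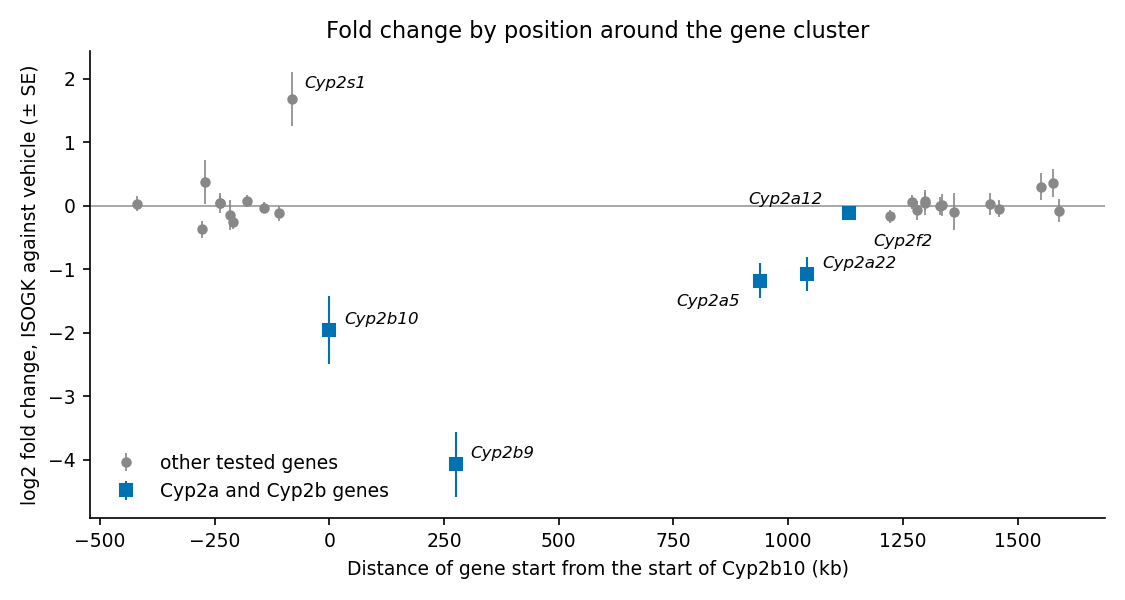
Log2 fold change of ISOGK against vehicle, with its standard error, for tested genes plotted by the distance in kb of their start from the start of Cyp2b10. Squares in blue mark the 5 tested Cyp2a and Cyp2b genes, which run from -4.07 to -0.11, and grey points mark the 24 other tested genes, which run from -0.37 to 1.68.

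The other targets of CAR and PXR were examined as the pathway most closely tied to Cyp2b10, from a list of 28 genes of which 27 were tested. The list, like the other hand-made lists, was drawn up with earlier results of these data known. Its shares are therefore a description. At an adjusted p under 0.05, 7 were lower and 1 was higher (edgeR quasi-likelihood test), where 3.44% of all tested genes were lower and 4.11% higher by that rule. Past both thresholds 2 were lower and 0 were higher, and the median log2 fold change of the list was -0.26. Gstm3, a glutathione S-transferase, fell from 26.6 ± 11.4 CPM to 5.46 ± 0.357 CPM (SD, n = 4 each, log2 fold change -2.28, SE 0.27, edgeR adjusted p = 0.00178), with 352 to 1073 counts in vehicle and 95 to 118 in ISOGK libraries. Fmo5, a flavin monooxygenase, fell with a log2 fold change of -0.85 (SE 0.15, edgeR adjusted p = 0.00695) and Cyp2c29, an arachidonic acid epoxygenase, with -0.68 (SE 0.13, edgeR adjusted p = 0.00900). For these 3 genes every ISOGK liver was below every vehicle liver, and their calls held with any 1 mouse left out.

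Cyp2c55, a CAR and PXR target expressed at a low level, fell past both thresholds with a log2 fold change of -1.73 (SE 0.45, edgeR adjusted p = 0.0376), at 19 to 47 counts in vehicle and 2 to 9 counts in ISOGK libraries. Its edgeR adjusted p was 0.0507 to 0.130 when any mouse but vehicle mouse 3 or ISOGK mouse 3 was left out. The others past the adjusted threshold, named after their values were seen, were Cyp3a11, the main PXR-responsive P450, at -0.71, Cyp2c54 at -0.59 and Gstm1 at -0.52, all lower, and Cyp3a13 at 0.62, which was higher. These 4 calls were each lost without 1 of 4 to 6 of the mice, with edgeR adjusted p of 0.0538 to 0.110 for Cyp3a11, 0.0506 to 0.105 for Cyp2c54, 0.0600 to 0.107 for Gstm1 and 0.0508 to 0.0729 for Cyp3a13. Vehicle mice 3 and 4 were among these mice for all 4 genes. The remaining 19 did not pass, among them Por, the reductase that serves all microsomal P450 enzymes, at -0.09 (SE 0.12, edgeR adjusted p = 0.699) and Alas1, the first enzyme of heme synthesis, at 0.80 (SE 0.37, edgeR adjusted p = 0.237).

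Among 22 regulators known to act on these genes, all 22 were tested and none passed both thresholds. By edgeR, 2 rose and 3 fell at an adjusted p under 0.05, with a median log2 fold change of -0.06 over the list. Nr1i3, which encodes CAR, rose from 74.5 ± 6.35 to 102 ± 16.7 CPM (SD, n = 4 each, log2 fold change 0.45, SE 0.12, edgeR adjusted p = 0.0415), without overlap, beside the log2 fold changes of -1.96 for Cyp2b10 and -1.73 for Cyp2c55. The call for Nr1i3 was lost without any mouse but ISOGK mouse 1 or 2 (edgeR adjusted p of 0.0553 or more) and with scaling by library size alone (0.153). Nr1i2, which encodes PXR, had 50.3 and 48.9 CPM (log2 fold change -0.04, SE 0.13, edgeR adjusted p = 0.881). Both were named for their place in the pathway after their values were seen, as was Nr3c1 below.

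Esr1, the estrogen receptor α gene, rose with a log2 fold change of 0.72 (SE 0.17, edgeR adjusted p = 0.0281) although the CPM of the groups overlapped. Hlf, a PAR bZIP factor, fell by 0.51 on the log2 scale (SE 0.09, edgeR adjusted p = 0.00607), Ghr, the growth hormone receptor gene, by 0.45 (SE 0.10, edgeR adjusted p = 0.0181) and Nr3c1, the glucocorticoid receptor gene, by 0.41 (SE 0.11, edgeR adjusted p = 0.0376). Only the call for Hlf, among these 4 genes, held with each mouse left out in turn. Without 1 mouse the edgeR adjusted p reached 0.0835 for Esr1 (lost without vehicle mouse 1, 2 or 3 or ISOGK mouse 2 or 4), 0.0676 for Ghr (vehicle mouse 1, 2 or 4) and 0.121 for Nr3c1 (any mouse but vehicle mouse 4 or ISOGK mouse 3). The other PAR bZIP genes of the list, Dbp and Tef, were named after their values were seen. Their log2 fold changes were larger, at -2.28 (SE 1.08) and -1.29 (SE 0.41). Neither passed the adjusted threshold (edgeR adjusted p = 0.256 and 0.106), and the groups overlapped for Dbp but not for Tef. Of the genes listed for electron transfer and heme metabolism, not all of which act on microsomal P450 enzymes, 8 of 8 were tested and 1 passed the adjusted threshold. This was Cyb5b, the outer mitochondrial membrane cytochrome b5, which fell from 263 ± 23.2 to 159 ± 11.7 CPM (SD, n = 4 each, log2 fold change -0.73, SE 0.10, edgeR adjusted p = 0.00178). Cyb5a, the other cytochrome b5 gene of the list, named after its value was seen, had 523 and 572 CPM (log2 fold change 0.13, SE 0.11, edgeR adjusted p = 0.501). Cyb5r3, a cytochrome b5 reductase, stood at -0.34 on the log2 scale (edgeR adjusted p = 0.0760). Fech, whose enzyme inserts iron to form heme, stood at -0.25 (edgeR adjusted p = 0.113).

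Since Cyp2b9, Cyp2b13 and Cyp2a4 are female-biased genes and the mice were male, other sex-biased liver genes were examined. Of 20 other female-biased genes listed, 16 were in the table and 12 were tested. Past both thresholds 1 was higher and 0 were lower. The higher gene was Cyp17a1, a steroid 17α-hydroxylase, which rose from 15.8 ± 0.761 to 57.1 ± 18.3 CPM (SD, n = 4 each, log2 fold change 1.85, SE 0.18, edgeR adjusted p = 0.000689). Slc22a27, an organic anion transporter gene, had a log2 fold change of -1.03 (SE 0.37, edgeR adjusted p = 0.112), and the median of the list was 0.15. All 18 male-biased genes listed were tested, 3 rose and 1 fell at the adjusted threshold, and the median was 0.49. Ugt2b38, a UDP-glucuronosyltransferase, rose by 0.68 (SE 0.12, edgeR adjusted p = 0.00651) and Gstp1, a glutathione S-transferase, by 0.57 (SE 0.14, edgeR adjusted p = 0.0316) on the log2 scale. Cyp2d9, a testosterone 16α-hydroxylase named after its value was seen, rose by 0.53 (SE 0.15, edgeR adjusted p = 0.0494). The calls for Gstp1 and Cyp2d9 were lost without any 1 vehicle mouse and without ISOGK mouse 1 or 2, for Cyp2d9 also without ISOGK mouse 4, with edgeR adjusted p of up to 0.0911 and 0.135. Keg1, a glycine N-acyltransferase-like gene, fell from 114 ± 14.8 to 31.9 ± 13.4 CPM (SD, n = 4 each, log2 fold change -1.84, SE 0.30, edgeR adjusted p = 0.00975).

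Over the 59 other tested P450 genes of 68 in the table, 10 rose and 9 fell at an adjusted p under 0.05 (edgeR quasi-likelihood test), 7 and 1 past both thresholds, and the median log2 fold change was -0.15. The genes with the smallest adjusted p were the fatty acid ω-hydroxylase genes Cyp4a14, Cyp4a31 and Cyp4a10, which rose by 2.12, 2.37 and 2.02 on the log2 scale. The 1 gene lower past both thresholds was Cyp2c55.

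**Figure D4:**
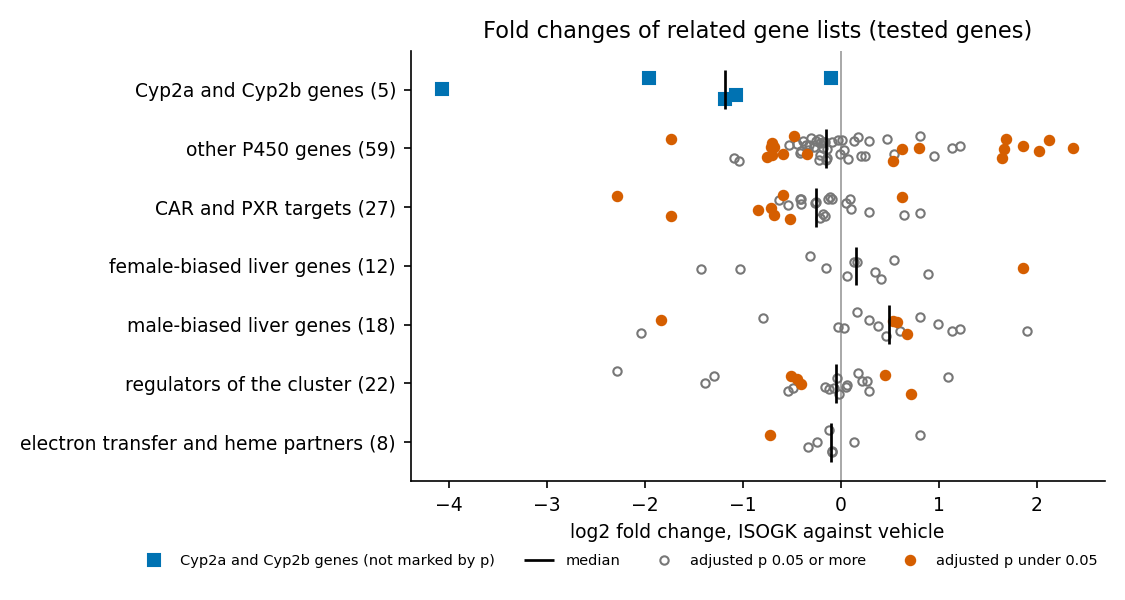
Log2 fold changes of the tested genes of each list, 1 point for each gene with random vertical spread, filled in orange for an adjusted p under 0.05 (edgeR) and open otherwise, blue squares for the 5 tested Cyp2a and Cyp2b genes, which are not marked by adjusted p, and a black bar at the median. The bar stands at -1.18 for the Cyp2a and Cyp2b genes, -0.26 for the CAR and PXR targets, 0.15 for female-biased and 0.49 for male-biased genes. Genes on several lists appear in each.

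Markers of hepatocyte zones and of other cell types are given beside these values. Of 9 pericentral hepatocyte markers, the zone where Cyp2a5 is known to be expressed, Oat rose and Cyp1a2 and Lect2 fell at the adjusted threshold (edgeR adjusted p = 0.0461, 0.0101 and 0.0444). Without 1 mouse the adjusted p reached 0.126 for Oat (lost without any but ISOGK mouse 3) and 0.139 for Lect2 (any but ISOGK mouse 2). The summed level of the 9 was 11181 to 12401 CPM in vehicle and 10882 to 13956 CPM in ISOGK livers (two-sided exact permutation test, p = 0.543). The summed level of 9 periportal markers was 5885 to 7804 CPM and 6743 to 8627 CPM (two-sided exact permutation test, p = 0.171), with Hal rising (edgeR adjusted p = 0.0305, and 0.0557 to 0.0909 without vehicle mouse 1, 3 or 4 or ISOGK mouse 2). Neither sum separated the groups, but such sums follow their most abundant genes. Cyp2e1, named after its value was seen, made up most of the pericentral sum, at a mean of 9008 CPM in vehicle livers.

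Kupffer cell and macrophage markers, 6 of 6 in the table and none at 0, summed to 962 to 1118 CPM in vehicle and 751 to 957 CPM in ISOGK livers, with no overlap (p = 0.0286 in a two-sided exact permutation test, which cannot give a smaller p for groups of 4). Of these only Cd68 passed the adjusted threshold, and it fell (log2 fold change -0.57, edgeR adjusted p = 0.00900). Cd5l held the largest part of the sum, at 629 CPM in vehicle and 480 CPM in ISOGK livers (edgeR adjusted p = 0.0639). Clec4f, named after its value was seen, was alone above 0, with a log2 fold change of 0.06. The groups overlapped for every gene of the list but Cd68 and Cd5l. Lymphocyte and neutrophil markers, 6 of 6 in the table, summed to 3.84 to 7.87 CPM in vehicle and 7.23 to 18.0 CPM in ISOGK livers (two-sided exact permutation test, p = 0.0571), and S100a9, a neutrophil granule gene, rose past both thresholds (edgeR adjusted p = 0.0149, and 0.0522 without vehicle mouse 2). Cholangiocyte markers summed to 27.5 to 34.8 and 28.2 to 69.1 CPM (two-sided exact permutation test, p = 0.114), with Sox9 rising by 0.51 on the log2 scale (edgeR adjusted p = 0.0494, and 0.0745 to 0.140 without any 1 mouse). Endothelial markers at 313 to 336 and 289 to 338 CPM and stellate cell markers at 268 to 374 and 207 to 400 CPM overlapped between the groups (two-sided exact permutation tests, p = 0.343 and 0.971). The part of these cell types in the values of the Cyp2a and Cyp2b genes was not tested.

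The genes whose pattern over the 8 livers was nearest to each tested gene were found by the root mean square difference of log2 CPM from the vehicle mean, which uses the contrast itself and is a description. For Cyp2b9 they were Car3, the muscle and liver carbonic anhydrase, at a difference of 1.38, Prok1, a secreted prokineticin, at 1.48 and Rgs16, a regulator of G protein signaling, at 1.49, and Cyp2b10 stood at rank 7 with 1.74. Car3 went from 867 ± 181 to 139 ± 69.3 CPM (SD, n = 4 each).

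Cyp2b10 had closer neighbors, Cyp2c55 at 0.599, Zfp968 at 0.682 and Tmem14a at 0.779, with Cyp2a22 at rank 19. Cyp2a5 was nearest to Jph1, which encodes a junctophilin, at 0.197, Slfn9 at 0.208 and Ngef at 0.257. For Cyp2a22 they were Zfp442 at 0.223, Ptgr1, a prostaglandin reductase, at 0.238 and Plcl1 at 0.249, and for Cyp2a12, which hardly moved, Hdhd2 at 0.0373, Cyp4v3 at 0.0390 and Wbp1l at 0.0441. Within the cluster, the smallest difference between 2 genes was 0.628, between Cyp2a5 and Cyp2a22, and the largest was 3.05, between Cyp2b9 and Cyp2a12. No tested gene of the cluster had another of them among its 3 nearest genes.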

How the data were processed

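Liver RNA of 8 mice was sequenced, and per the study's methods the authors aligned single-end reads with HISAT2 and counted them on genes with StringTie. The submitters' processing notes name build mm10, and the use of strand is not given in the sources used here. The deposited table holds whole-number counts without normalization for 16540 gene symbols.

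Genes were filtered with filterByExpr (minimum count 10, minimum total 15) and tested with the robust quasi-likelihood test of edgeR 4.0.16 in R 4.3.3, with TMM factors and Benjamini-Hochberg adjustment over 12307 genes. The SE of a log2 fold change is its size divided by the square root of F. CPM use TMM-scaled library sizes and log2 CPM a prior count of 2. Intervals and floors cover counting error only. Marker sums and totals were compared with exact permutation tests. Gene models are those of GENCODE M21 and upstream sequences those of RefSeq. Alternatives were DESeq2 1.42.0, limma-voom (limma 3.58.1), other scalings and filters, the fit without the robust option, a replicate block, and each mouse left out. A prior count of 2 in the fit was also run, as were the summed counts of Cyp2a4 with Cyp2a5 and of the Cyp2b genes. The scripts were tested on simulated data. The 7 genes and all lists were chosen with earlier results of these data known. The text names these 7, the other Cyp2 genes of the cluster, the 3 tested genes with the lowest adjusted p from each list, the 3 nearest in profile to each tested gene, and others marked as named later, and 1 gene under this rule is not reported here.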

Additional observations from a re-analysis of the deposited data

Results flagged for a closer look

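In groups of 4 livers, the highest or lowest value was set against Dixon's 95% critical value by the gap to its nearest neighbor divided by the range of the group. Of 185 groups examined, 5 were above it, where chance alone flags about 1 in 20, or 9.25. None of the values of the 7 Cyp2a and Cyp2b genes was among them. Cyp17a1 in ISOGK mouse 3 stood at 84.2 CPM above 45.5 to 52.0 CPM in the other ISOGK mice (ratio 0.833). Cyp2c55, the gene nearest in profile to Cyp2b10, stood in ISOGK mouse 1 at 0.0981 CPM below 0.419 to 0.475 CPM in the others (ratio 0.852), and that mouse also had the lowest Cyp2b9 and Cyp2b10 of its group. Gstm1 stood in ISOGK mouse 4 at 760 CPM above 610 to 631 CPM (ratio 0.857). Fgb, a fibrinogen chain, stood in ISOGK mouse 4 at 16848 CPM above 6707 to 7042 CPM (ratio 0.967). The summed skeletal muscle markers stood in vehicle mouse 4 at 82.3 CPM above 0 to 0.545 CPM (ratio 0.993). The log2 fold changes of the Cyp2a and Cyp2b genes without each of these mouse 4 livers stand beside the results.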

How the results depend on the processing

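The 5 tested Cyp2a and Cyp2b genes stayed below 0 under every alternative run. Leaving out 1 mouse gave log2 fold changes of -4.98 to -3.74 for Cyp2b9, -2.38 to -1.61 for Cyp2b10, -1.49 to -1.03 for Cyp2a5, -0.15 to -0.08 for Cyp2a12 and -1.25 to -0.92 for Cyp2a22. The sum of Cyp2b9, Cyp2b10 and Cyp2b13 counts had a log2 fold change of -3.01, and the sum of Cyp2a4 and Cyp2a5 counts -1.18. With library size alone Cyp2a12 had -0.24, where the median of all genes moved to -0.13. The minimum of 10 counts in every library left no value for Cyp2b9. Of 15 alternatives that gave Cyp2b9 a value it was past both thresholds in 15, while Cyp2a5 and Cyp2a22 were in 8 of 16 each and Cyp2b10 in 5 of 16. The number of these genes past both thresholds was 1 to 3 without 1 mouse, and 1 with the replicate block. Deviations of same-numbered mice had correlations of -0.014 to 0.085, and those of other pairs ran from -0.207 to 0.219. With so few mice these values cannot tell whether same-numbered mice shared a batch or cage. No pairing is stated in the sources used here. With the block 170 genes were called in place of 200, and without 1 mouse 123 to 250, the lowest without vehicle mouse 2. With the block 0 other Cyp2 genes of the cluster, 1 CAR and PXR target and 4 male-biased genes were called. Without 1 mouse these counts were 0 to 1, 1 to 2 and 1 to 4, and those of regulators 0 to 4, the highest without ISOGK mouse 1, where the main count was 0. Limma-voom called 1 CAR and PXR target, 4 male-biased genes and 2 regulators. DESeq2, like the fit without the robust option, called 5 male-biased genes and 1 regulator. The minimum of 10 counts called 0 other Cyp2 genes and 1 CAR and PXR target. The causes of these changes were not tested. For the other named genes, 941 of the values recomputed stayed on their side of the threshold, 125 lost it and 21 crossed it. Nr1i2, near 0 throughout, changed sign without vehicle mouse 2 or ISOGK mouse 3 or 4, with a range of -0.135 to 0.0487 over the mice left out. Depth limits Cyp2b13 and Cyp2a4, for which no fitted value is given.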
